A study of Homo sapiens and Mus musculus with 26 samples.

Results

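TRAC-Seq libraries with and without NaBH4 were compared in liver tumor tissue of 3 control mice. These are 6 of the 26 samples of the series, chosen by their labels: the NaBH4-treated and the input library of the mice numbered 1, 2 and 3, paired by that number, over every kind of row in the deposited table. The series concerns METTL1 in liver cancer. Its other samples come from human liver cancer cell lines. All 6 mouse libraries were made from small RNA of under 200 nucleotides that had been treated with AlkB, and the treated libraries differ from their inputs in the NaBH4 step. The mice are labelled Ctrl, wild type and C57, and the sources used here give neither their age and sex nor how the tumors arose. No mouse with altered Mettl1 is among these samples, so the comparison is of the chemical step alone.

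Transfer RNAs carry many modified bases. METTL1, with its partner WDR4, places N7-methylguanosine (m7G) in the variable loop of a subset of tRNAs, a mark known for keeping these tRNAs stable. In TRAC-Seq, AlkB, a bacterial demethylase, first removes methyl groups that block reverse transcription. NaBH4, a reducing agent, then acts on m7G so that the chain can be broken there, and the cleaved tRNA is read as a fragment that runs to its 3' end. The table sorts the reads of each mature tRNA into whole, 5', 3' and other rows, and those of tRNA genes into precursor and trailer rows. How the authors drew the borders between these kinds is not given in the sources used here.

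Recovered reads in mature tRNA rows ranged from 1943806 to 2298831 in the inputs and from 2720059 to 2820877 in the treated libraries. All 10 hepatocyte markers on the list had reads, with the row of the albumin gene (Alb) at 12808 to 19139. The 3 listed markers of other organs that had a row were at 0 in all 6 libraries. As the RNA was under 200 nucleotides, reads in the row of a protein-coding gene need not follow the level of its mRNA. In sum, the 7 tumor markers set mouse 3 apart. Their summed value was 12790 in the input and 12532 in the treated library of mouse 3. In the 4 libraries of mice 1 and 2 it was 464 to 893, and alpha-fetoprotein (Afp) was at 7.26 to 17.9. Most of the sum in mouse 3 was Spp1, at 9660 in the input and 9426 in the treated library. Not every marker differed so, as Mir21a was at 265, 204 and 328 in the inputs of mice 1, 2 and 3. None of the listed markers of hepatocytes, tumors, leukocytes, endothelium, stroma or red cells passed the test between treated and input. Near-identical genes held the same reads, so a read can be counted in several rows: for example, the isodecoders Ala-TGC-2 and Ala-TGC-3 both had a mean mature value of 40276. Sums over an anticodon or over all rows therefore count such reads more than once. Values are reads divided by 1 factor per library. They are not per length, so they compare libraries and not genes.

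In each of the 3 mice the balance of mature tRNA reads moved from 5' to 3' rows. The 3' rows held 40.2%, 40.1% and 48.9% of the mature tRNA value in the inputs of mice 1, 2 and 3, and 66.0%, 63.0% and 65.2% in their treated libraries. The 5' rows held 58.7%, 58.9% and 50.04% in the inputs and 33.5%, 36.5% and 34.3% after treatment. Neither kind overlapped between the groups. The mean 3' share went from 43.0% ± 5.07 to 64.8% ± 1.56 (SD, n = 3 mice), a difference of 21.7 ± 4.91 percentage points, and the 5' share differed by -21.1 ± 4.84 points. The exact sign-flip permutation test over 3 pairs gave a two-sided p of 0.25, which is the smallest it can give, and the exact permutation test of 3 against 3 gave its smallest p, 0.1.

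**Figure D1:**
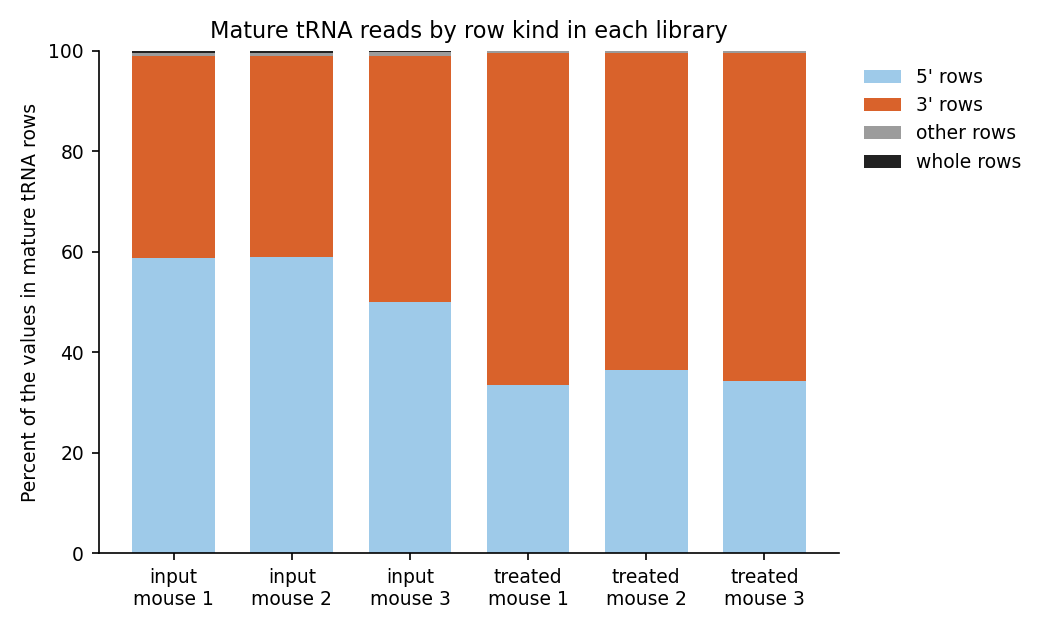
Stacked bars give the percent of each library's mature tRNA value in 5', 3', other and whole rows, for the input and treated library of each mouse. The 3' part is at 40.1% to 48.9% in the inputs and at 63.0% to 66.0% in the treated libraries, and the whole and other parts are thin in all 6.

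Whole rows held few of the reads even without NaBH4. Their share was 0.436%, 0.420% and 0.310% of the mature value in the inputs and 0.117%, 0.128% and 0.1003% in the treated libraries. The summed value of whole rows was 0.462, 0.432 and 0.530 times that of the input in mice 1, 2 and 3, while that of 3' rows was 2.82, 2.23 and 2.18 times it. The summed value of 5' rows was 0.979, 0.879 and 1.12 times the input on the deposited scaling, and as a share of all rows it went from 0.196% to 0.145%. All 264 rows for whole precursors were at 0 in every library. As a share of all rows, most of which is 5S ribosomal RNA counted in many rows, the 3' rows went from 0.155% to 0.271%.

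Row by row, both rises and falls were found. The test, limma with the mouse as a block, called 260 of 16833 tested rows higher (1.54%) and 55 lower (0.327%) in treated libraries at an adjusted p of 0.05. Of the 3' rows, 101 of 196 tested were higher and 2 lower, with a median log2 difference of 0.67 against -0.03 over all rows. Of the 152 tested 5' rows, 18 were lower and 2 higher (median -0.53). Of the 82 tested whole rows, 16 were lower and none higher (median -0.77), with 31 of the 82 at an unadjusted p below 0.05. In 141 of the 196 3' rows the value was higher in all 3 mice and in 86 of the 152 5' rows lower, against 14.4% and 14.6% of all tested rows. Treated and input values did not overlap in 3.99% (higher) and 3.7% (lower) of all tested rows. These levels depend on how libraries are set against each other. Scaling to an equal total moved the median of all rows by -0.39 and gave 128 higher and 634 lower rows, and scaling to an equal mature tRNA total moved it by -0.60 and gave 110 higher and 2002 lower. Under these scalings 77 and 66 of the 3' rows were higher and 27 and 48 lower. Without the mouse as a block, 30 rows passed, all higher and 29 of them 3' rows. Leaving out mouse 1 left 161 higher and 34 lower rows, and leaving out mouse 2 left 27 lower. Without the block, 47 of 53 rows followed one by one under every alternative lost their call. The called rows among them that kept it were the 3' rows of Ala-CGC-4, Ala-TGC-5, Ile-TAT-1 and Ile-TAT-2 and the partial precursor of Tyr-GTA-3-2.

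**Figure D2:**
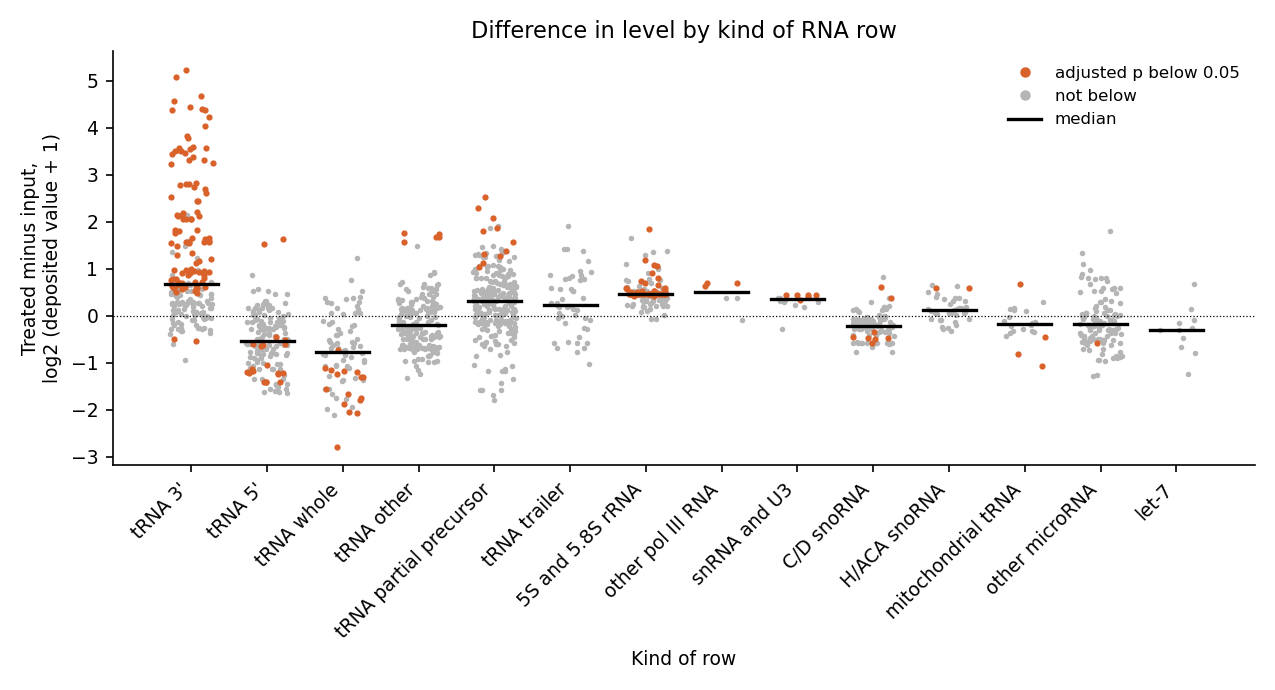
Each point is a tested row, placed by its treated minus input difference in log2(value + 1), with rows past the limma threshold in orange and the median of each kind as a bar. The median is 0.67 for tRNA 3' rows, -0.53 for 5' rows, -0.77 for whole rows, 0.47 for ribosomal RNA and -0.21 for C/D snoRNA.

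The ratio of 3' to all other mature reads within a tRNA was used to order the tRNAs. It depends on the scaling of the libraries only through the pseudocount of 1, which counts where the 3' or the other reads are near 0. Of 49 anticodons tested, limma called 38 higher (77.6%) and 0 lower, with 40 of 49 higher when the pseudocount was 10. All 38 were higher in each of the 3 mice, and for 34 anticodons (69.4%) the treated and input shares did not overlap. The log2 rise was above 1 for 28 anticodons and above 3 for 6. With 1 isodecoder in place of each anticodon's sum, 34 of 49 were higher and 0 lower. In the order of the 49, only the ranges over mice of Ser-CGA and its next lower neighbour Glu-TTC did not overlap, so neighbours in the order are not told apart by these 3 mice.

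The initiator tRNA, iMet-CAT, which starts every protein chain, had the largest rise. Its 3' share was 95.6%, 94.6% and 71.6% in the inputs of mice 1, 2 and 3 and 99.8%, 99.8% and 98.5% after treatment. In percent, mouse 3 started far below mice 1 and 2 and ended close to them, though its log2 ratio rose about as much as theirs. The log2 ratio rose by 4.71, 4.56 and 4.68 in the 3 mice, 4.65 with a standard error of 0.09 (limma adjusted p = 1.51e-05). In level, its 3' reads differed by 3.68 on the log2 scale and its 5' reads by -1.03. The isodecoder with the most reads, iMet-CAT-1, rose by 4.601, and iMet-CAT-3, mostly read as 5' fragments in the inputs, went from 26.5%, 19.8% and 3.11% to 89.8%, 86.0% and 39.8%.

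Val-TAC, a valine tRNA, came next. Its 3' share was 94.6%, 94.8% and 94.3% in the inputs and 99.8%, 99.7% and 99.7% in the treated libraries, with little spread in either group. The log2 rise was 4.42 with a standard error of 0.15 (limma adjusted p = 6.66e-05). The isoleucine tRNA Ile-TAT had 3' shares of 98.4%, 96.3% and 97.2% in the inputs and 99.9%, 99.9% and 99.8% after treatment. Since it was almost all 3' reads in both groups, its rise is clearer in the level: the 3' row of Ile-TAT-2 was at 518, 418 and 468 in the inputs and 15303, 9866 and 9086 in the treated libraries. Every treated library lay far above every input. The log2 difference of that row was 4.57 with a standard error of 0.12 (limma adjusted p = 1.84e-06), and that of Ile-TAT-1 was 4.45.

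The 3 alanine anticodons filled the next places, at 3.99 for Ala-AGC, 3.62 for Ala-TGC and 3.16 for Ala-CGC. In Ala-CGC the 3' share went from 75.0%, 69.6% and 72.1% to 96.8%, 95.6% and 95.02%. No treated library overlapped an input, and the limma adjusted p was 0.000138. That share sums unlike isodecoders. Ala-CGC-1, the one with the most reads, was at 99.9%, 99.8% and 99.7% in the inputs, while Ala-CGC-5 had no 3' reads. In level, the 3' reads of Ala-CGC differed by 2.89 on the log2 scale and its 5' reads by -0.27. Of 19 alanine isodecoders tested, 18 had a ratio called higher, and in 10 the treated shares all lay above the inputs. The exception was Ala-CGC-5, which had 0 3' reads of 2671 to 4918 mature reads in every library, a count that allows a 3' share of at most 0.112%. In isodecoders such as Ala-CGC-4, Ala-TGC-5, Ala-CGC-7, Ala-TGC-6 and Ala-AGC-10 almost every read was a 3' read in both groups, so their ratio moved with the level. The share of Ala-AGC-10 in mouse 1 was 100% without and 99.95% with NaBH4, though its ratio was called higher. The 3' row of Ala-CGC-4 was at 15.8, 3.63 and 3.71 in the inputs and 484, 256 and 157 after treatment. Its log2 difference of 5.24 was the largest of any named row, ahead of Ala-TGC-5 at 5.08, and both rows held the same treated values. Ala-CGC-7 was at 4.403.

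Tyr-GTA and Trp-CCA, the tyrosine and tryptophan tRNAs, followed with log2 rises of the ratio of 2.93 and 2.75. Their 3' shares were already 95.9% to 98.3% and 93.9% to 96.1% in the inputs. In level, the 3' reads of Tyr-GTA had the largest log2 difference after Ile-TAT, 4.15, with 4.22, 3.93 and 4.28 in the 3 mice. All 5 tyrosine and all 6 tryptophan isodecoders tested were higher, but isodecoders that share reads are not separate observations. Trp-CCA-1 and Trp-CCA-6, for example, had mean mature values of 14948 and 14947. Tyrosine also stood out in the rows for other fragments, where the 5 called rises were the 5 tyrosine isodecoders, at 1.56 to 1.75. Tyr-GTA-1 was at 57.1, 45.4 and 30.4 in the inputs and 156, 127 and 107 in the treated libraries of that kind, without overlap.

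**Figure D3:**
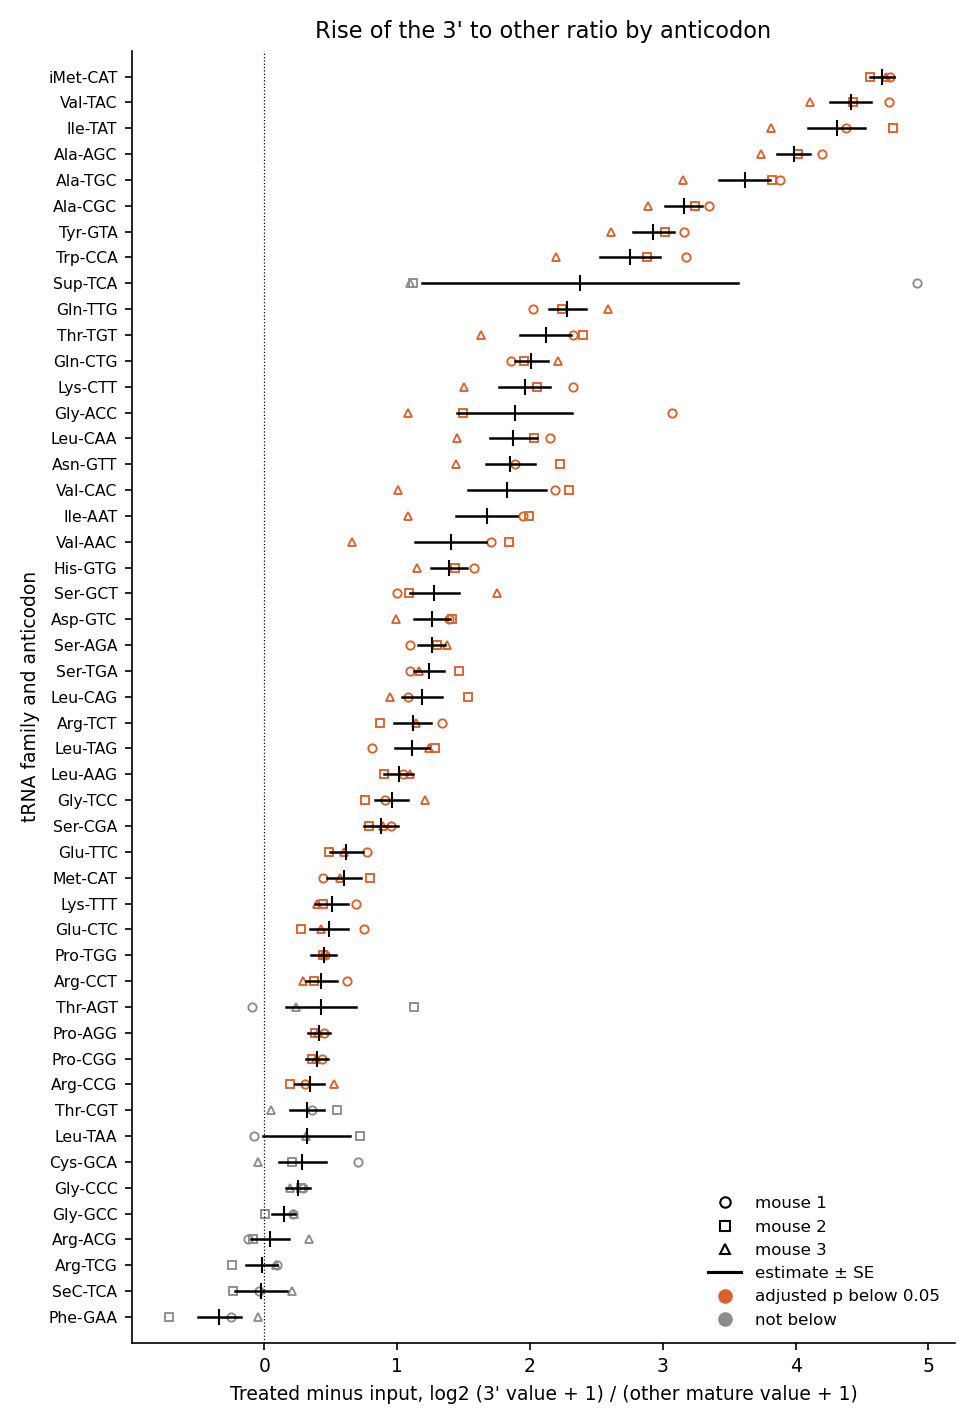
For each of 49 anticodons, open symbols give the treated minus input difference of the log2 ratio of 3' to other mature value in each mouse, and the black mark and line the limma estimate ± its standard error. The rises run from 4.65 for iMet-CAT to -0.34 for Phe-GAA, and the 38 anticodons in orange passed the threshold.

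Rises were found both in families in which m7G is documented in mammalian tRNA and in the other families. Of 28 anticodons of the documented families, 22 were higher, with a median log2 rise of 1.26. Of 20 anticodons of the other families, 16 were higher, with a median of 1.15, and over isodecoders 70 of 120 (median 1.04) and 47 of 60 (median 1.15) were higher. The 8 largest called rises were all of documented families, and so were Thr-TGT at 2.12, Lys-CTT at 1.96 and Asn-GTT at 1.85. Among the other families, the glutamine tRNAs rose most. Gln-TTG was at 97.2%, 97.0% and 96.6% in the inputs and 99.3%, 99.4% and 99.4% after treatment, a log2 rise of 2.28 (limma adjusted p = 0.000276), and Gln-CTG rose by 2.01.

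In the glutamine tRNAs both the 3' and the 5' level moved. Their 3' level differed by 1.22 and 0.80 on the log2 scale and their 5' level by -1.14 and -1.42, and the largest called falls without overlap among 5' rows were those of Gln-CTG-2, with Gln-CTG-3 at the same values, and Gln-CTG-1. Gln-CTG-2 was at 739, 577 and 630 in the inputs and 264, 206 and 257 after treatment, so no library overlapped. Its log2 difference was -1.42 with a standard error of 0.13 (limma adjusted p = 0.00147). Histidine tRNA, His-GTG, rose by 1.39, from a 3' share of 81.7%, 82.8% and 79.1% to 93.02%, 92.9% and 89.4%. The leucine and serine tRNAs, which have a long variable arm, rose by 1.011 to 1.87 in 4 of 5 leucine anticodons and by 0.88 to 1.28 in the 4 serine anticodons tested. The median log2 difference of 5' rows was alike in both families, at -1.02 for leucine and -1.21 for serine. Of 15 leucine 5' rows tested none was called lower, and of 12 serine 5' rows 7 were. Among the 7, Ser-GCT-3 was at -1.23 and Ser-TGA-2 at -1.22, the latter not past the threshold without mouse 2 (limma adjusted p = 0.0952) or mouse 3 (0.0528).

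At the other end, 6 anticodons had the smallest rises, and none of them passed. Phe-GAA, the phenylalanine tRNA, was the lowest at -0.34 (limma adjusted p = 0.115), with 3' shares of 99.4%, 99.3% and 99.6% in the inputs and 99.2%, 98.8% and 99.6% after treatment. It is a documented m7G family, and its share overlapped between the groups. One of its isodecoders, Phe-GAA-3, was the only one of 181 whose ratio was called lower (0.552%), at -0.98 with a limma adjusted p of 0.0143. Its 3' share was 99.4%, 99.3% and 99.7% without and 98.8%, 98.2% and 99.6% with NaBH4, and the call was lost without mouse 1 (adjusted p = 0.0517) or mouse 2 (0.106). Arg-ACG and Arg-TCG, at 0.04 and -0.02, were above 98% in all 6 libraries, and SeC-TCA, the selenocysteine tRNA, was at -0.02 with 80.6% to 87.4% in every library. Arginine anticodons varied, since Arg-TCT rose by 1.12 (limma adjusted p = 0.00212).

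Glycine tRNA Gly-GCC, the one with the most reads of all, was read almost only as 5' fragments. Its 3' share was 0.106%, 0.124% and 0.141% in the inputs and 0.123%, 0.124% and 0.164% in the treated libraries, and the difference of 0.15 did not pass (limma adjusted p = 0.177). Gly-CCC, at 0.25, did not pass either (0.0553). Its share was 27.5%, 28.6% and 12.0% in the inputs and 31.7%, 32.7% and 13.4% after treatment, with mouse 3 low in both. The glutamate and proline tRNAs were also mostly 5' reads. Glu-TTC went from 22.7%, 24.6% and 21.8% to 33.3%, 31.3% and 29.6%, a log2 rise of 0.62 (limma adjusted p = 0.00978), and the 3 proline anticodons rose by 0.395 to 0.45. Without mouse 1, Glu-TTC and the proline anticodons missed the threshold, with limma adjusted p of 0.0508 and of 0.0903 to 0.146. Without mouse 2, Pro-TGG (0.126) and Pro-CGG (0.0543) missed it too. In all, 8 anticodons were below 30% in every input and 28 above 90%, so the 43.0% over all rows is a mix of tRNAs near either end.

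Of 181 isodecoders tested, limma called 117 higher (64.6%) and 1 lower (0.552%), and in 90 (49.7%) the treated shares all lay above the inputs. The 117 include isodecoders at 100% 3' reads in all 6 libraries, such as Ala-CGC-4, Ala-CGC-7 and Ala-TGC-6. Their share could not rise, and their ratio followed the 3' level alone. Isodecoders of 1 anticodon did not always move alike. Lys-CTT-2 went from 70.6%, 72.8% and 75.8% to 97.8%, 97.8% and 97.5%, while Lys-CTT-3, with more reads, went from 92.5%, 93.7% and 95.4% to 97.6%, 97.6% and 97.7%. They ended at about the same share from different starts, with log2 rises of 3.96 and 1.38, and the differences in the 3 mice, 4.19, 4.08 and 3.62 against 1.73, 1.42 and 1.00, did not overlap. Val-AAC-2 rose by 2.19 and Val-AAC-5 was at -0.005. The 5' row of Val-AAC-5 rose from 435, 340 and 179 to 1369, 919 and 624 (log2 difference 1.63, limma adjusted p = 0.000627). Beside Val-CAC-4 it was the only 5' row called higher. Set against whole reads only, the 3' reads of Val-AAC-5 rose too, by 3.32 (limma adjusted p = 0.00776). No 3' read was counted in any library for 5 tested isodecoders, Ala-CGC-5, Asp-GTC-3, Glu-CTC-5, Lys-CTT-13 and Pro-TGG-4, of which the last had 3712 to 6562 mature reads a library. Differences between isodecoders were not tested, and near-identical isodecoders share reads.

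**Figure D4:**
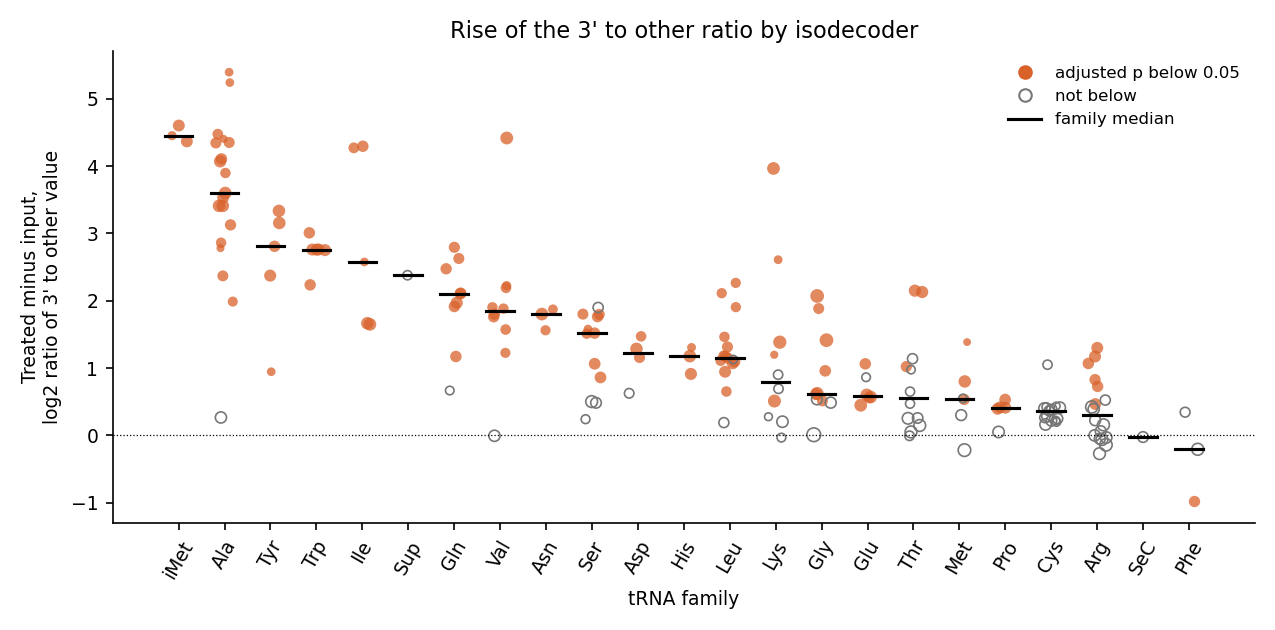
Each circle is 1 of 181 isodecoders, placed by its treated minus input difference of the log2 ratio of 3' to other value, grouped by tRNA family in the order of the family medians and larger with more reads. Filled circles passed the limma threshold, and Ala-CGC-5, Val-AAC-5 and Lys-CTT-2 lie away from the rest of their families.

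On the deposited scaling, limma called 2 of 196 3' rows lower after treatment, those of the cysteine tRNAs Cys-GCA-3 and Cys-GCA-7. Scaled to the total or to mature tRNA, 27 and 48 of the 3' rows were lower. Over the whole anticodon, the 3' level of Cys-GCA differed by -0.345 on the log2 scale and that of Phe-GAA by -0.346. Cys-GCA-3 was at 6153, 4890 and 6335 in the inputs and 4336, 3141 and 4678 in the treated libraries, without overlap, a log2 difference of -0.53 with a limma adjusted p of 0.0187. The 3' share of Cys-GCA was 78.6%, 82.4% and 83.9% without and 85.6%, 84.4% and 83.4% with NaBH4, so the groups overlapped, and 0 of its 15 tested isodecoders passed. Without mouse 1 or mouse 2 both 3' rows missed the threshold, with limma adjusted p of 0.0519 to 0.0952.

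Among whole rows with a mean of at least 50, the largest called falls without overlap belonged to arginine, glutamine and glycine tRNAs. Arg-TCT-1 was at 174, 86.2 and 68.2 in the inputs and 28.3, 23.0 and 19.4 after treatment, a log2 difference of -2.07 (limma adjusted p = 0.012). Gln-CTG-2 was at -2.05, Gly-CCC-1 at -1.87, and Arg-TCT-3 and Arg-TCT-2 at -1.78 and -1.76. The 3' level of Arg-TCT as a whole differed by 0.09. Without mouse 1, Gly-CCC-1 and Arg-TCT-2 missed the threshold (limma adjusted p = 0.0537 and 0.0573), as did Gly-CCC-1 without mouse 2 (0.145) and Arg-TCT-2 without mouse 3 (0.0715).

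Precursor tRNA reads rose at a few genes. Of 254 rows for partial precursors, 11 were higher and none lower (median 0.32), with 38 at an unadjusted p below 0.05. Scaled to the total or to mature tRNA, 7 were higher and 2 lower, with medians of -0.05 and -0.25. Of 47 trailer rows, the stretch cut from the 3' end of a precursor, none passed and 2 had an unadjusted p below 0.05. Tyrosine genes led. Tyr-GTA-3-2 was at 135, 112 and 105 in the inputs and 846, 509 and 719 after treatment, with no overlap, a log2 difference of 2.53 (limma adjusted p = 0.000215). Tyr-GTA-2-1 and Tyr-GTA-1-5 were at 1.80 and 1.57, Ala-CGC-2-1 at 1.38 and Gly-GCC-2-8 at 2.09. Tyr-GTA-1-5 missed the threshold without mouse 1 or mouse 3 (limma adjusted p = 0.0621 and 0.0534). The summed value of partial precursors was 1.79, 1.57 and 1.88 times the input in the 3 mice.

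The calls for rows outside the nuclear tRNAs depended on the scaling. The list of ribosomal RNA was drawn by gene name and not limited to 5S RNA, a component of the large ribosomal subunit. It had 52 of 109 rows higher and 0 lower (median 0.47), with 83 rows at an unadjusted p below 0.05. Scaled to the total, 8 were higher and 1 lower, and scaled to mature tRNA 2 were higher and 15 lower (median -0.19). The n-R5s100 row, whose reads 31 other rows nearly equal, turned from 0.47 to -0.19 when libraries were scaled to mature tRNA. Its call was lost without mouse 1 (limma adjusted p = 0.392) or mouse 3 (0.11). The n-R5s40 row was at 1525, 1254 and 632 in the inputs and 3465, 2409 and 1348 after treatment, a log2 difference of 1.07 (limma adjusted p = 0.00149). The groups overlapped there, but each mouse was higher. The n-R5s28 row rose by 0.91. The n-R5s89 row rose by 1.85 and missed the threshold without mouse 1 (limma adjusted p = 0.0538) or mouse 2 (0.0905).

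The RNA of the signal recognition particle (Rn7s1, with Rn7s2 at nearly equal values) was at 84064, 65859 and 55256 in the inputs and 149252, 104523 and 85378 in the treated libraries. Every treated library lay above every input, and the log2 difference was 0.71 (limma adjusted p = 0.00209). Its list, other polymerase III RNA, had 3 of 6 rows higher and 0 lower. Scaled to the total, 2 were higher and 1 lower, and scaled to mature tRNA 0 and 1, so the call of Rn7s1 was lost there. Rn7sk, a regulator of transcription elongation, rose by 0.64 and turned to -0.02 when scaled to mature tRNA. The list of spliceosomal RNAs had 6 of 16 rows higher, of which 5 are copies of U3, a small nucleolar RNA (Rnu3b1 0.45, turning to -0.21 with the mature tRNA scaling), and the other is Rnu5g. Scaled to the total or to mature tRNA, 0 of the 16 were higher and 2 and 9 lower. Without mouse 1, Rnu3b1 missed the threshold (limma adjusted p = 0.192). U2 RNA (Rnu2-10) did not pass, at 0.19, and was at -0.24 and -0.48 when libraries were scaled to the total or to mature tRNA.

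Small nucleolar RNAs guide chemical marks on ribosomal RNA. Of 97 C/D box members, 2 were higher and 6 lower, with a median of -0.21. Scaled to the total, 0 were higher and 60 lower (median -0.64), and scaled to mature tRNA 0 and 72 (median -0.87). Snord118, the U8 RNA, rose by 0.62 but was at -0.04 when scaled to mature tRNA. Snord42b was at 15464, 12179 and 11095 in the inputs and 9837, 7904 and 8163 after treatment, with no overlap, and differed by -0.57 (limma adjusted p = 0.0101). Snord49b was at -0.48 and missed the threshold without mouse 1 (0.0636). Of 39 H/ACA box members, Snora17 and Snora70 were higher at 0.59 and 0.60 (-0.08 and -0.07 with the mature tRNA scaling), and 0 were lower. Scaled to the total or to mature tRNA, 7 and 22 of them were lower and none higher. Both missed the threshold without mouse 1 or mouse 3, with limma adjusted p of 0.0508 to 0.0673. Of 118 microRNAs, 1 was lower, Mir5121, at -0.57, and not without mouse 1 (0.0874) or mouse 2 (0.0608), and with these scalings 11 and 24 were lower and none higher. Of 11 let-7 rows, a microRNA family in which m7G has been reported, none passed, with a median of -0.30 and 2 at an unadjusted p below 0.05. Scaled to mature tRNA, 6 of the 11 were lower (median -0.95), and scaled to the total none passed (-0.71), with 7 at an unadjusted p below 0.05.

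Mitochondrial tRNAs are single rows in the table, without a split into fragments. Of 22, mt-Tv for valine was higher, and mt-Tk for lysine, mt-Tp for proline and mt-Ts2 for serine were lower. The value of mt-Tv was 16268, 16132 and 11155 in the inputs and 26929, 24857 and 17612 after treatment, without overlap (log2 difference 0.67, limma adjusted p = 0.00241). That of mt-Tk was 5126, 6267 and 1550 in the inputs and 2578, 2555 and 838 after treatment, lower in each mouse though mouse 3 was low in both (-1.06, limma adjusted p = 0.00225). The log2 differences of mt-Tp and mt-Ts2 were -0.81 and -0.46, the latter not past the threshold without mouse 1 (limma adjusted p = 0.0921) or mouse 2 (0.116). When scaled to the mature tRNA total, 21 of the 22 were called lower and none higher.

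**Figure D5:**
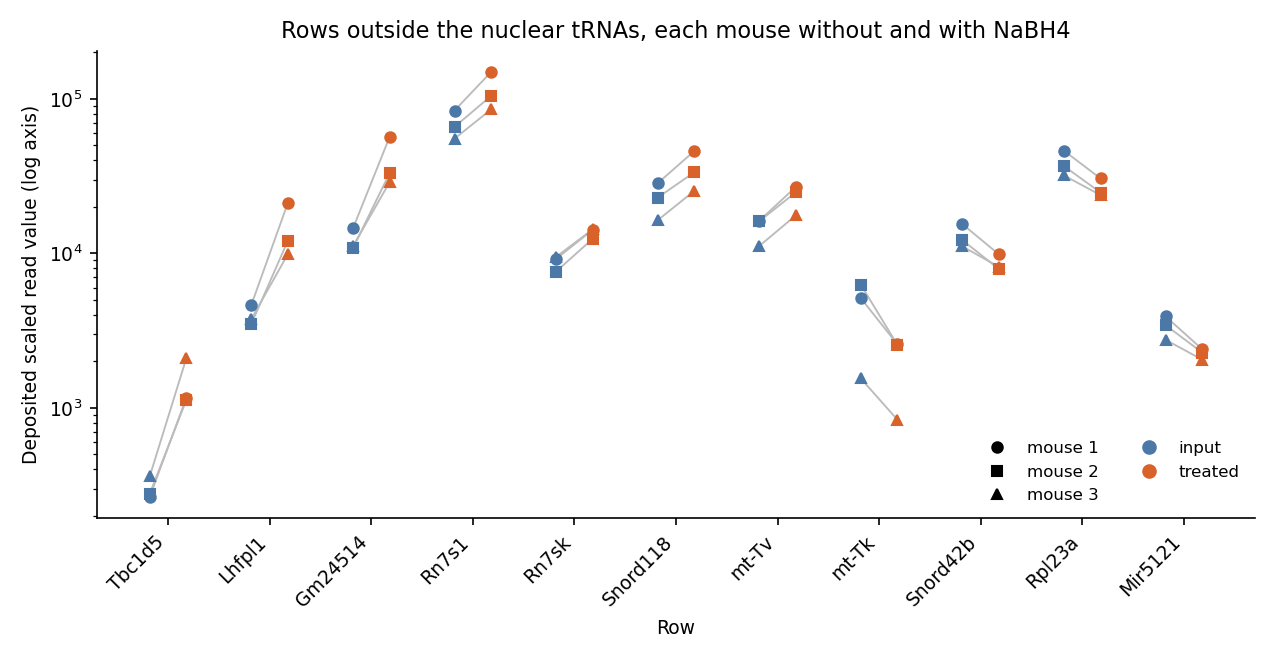
Deposited values on a log axis for 11 rows outside the nuclear tRNAs, with the input in blue and the treated library in orange and a line joining the libraries of each mouse. Tbc1d5 is higher after treatment by 2.22 on the log2 scale, and mt-Tk, Snord42b, Rpl23a and Mir5121 are lower after treatment in every mouse.

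Of 15486 rows of all other genes, 75 were higher and 9 lower. Scaled to the total, 26 were higher and 397 lower, and scaled to mature tRNA 28 and 1607. Tbc1d5, which acts in vesicle traffic, was at 266, 279 and 362 in the inputs and 1162, 1126 and 2096 after treatment. No treated library overlapped an input, and the log2 difference was 2.22 (limma adjusted p = 0.000148). The predicted genes Gm23037 and Gm22423 rose by 2.05 and 1.83, and Zfp318 by 1.77. Gm24514, Lhfpl1, Npffr2 and Gm23153 rose by 1.65, 1.79, 1.91 and 1.55. The reads of Lhfpl1 were 0.32 to 0.38 times those of Gm24514 over the 6 libraries, and those of Npffr2 0.11 to 0.16 times. Whether these rows share reads was not tested, so they may not be separate rises. In Lhfpl1 the values were 4646, 3494 and 3760 in the inputs and 21271, 12110 and 9904 after treatment, with no overlap.

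These gene rows hold reads of small RNA, so a gene symbol does not show that its mRNA changed. Of the 154 called rows outside the nuclear tRNAs with at least 20 reads, 61 had another row whose reads were equal within 2% in all 6 libraries. By name, most of the 61 were ribosomal RNA. None of the rows of all other genes whose rise or fall is named here was among the 61. The share of such rows among those not called is not given here. The row of Eif4a2, chosen after its values were seen, held 19.03 to 19.06 times the reads of Snord2 in every library. The largest falls among gene rows were Rpl23a at -0.53, Gm24452 at -0.49 and Gm23344 at -0.42, the last not past the threshold without mouse 1 (limma adjusted p = 0.0929) or mouse 2 (0.0688). Rpl23a, a ribosomal protein gene, was at 46143, 36698 and 31912 in the inputs and 30529, 24748 and 23818 after treatment (limma adjusted p = 0.00897). Positions of these rows in the mouse genome were not used here, and whether they overlap other small RNAs was not tested.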

How the data were processed

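Small RNA libraries of 3 mice, each with and without NaBH4, were analysed. The members and lists were chosen with earlier results of these data known. The authors deposited a table named RPKM whose values are a signal per row, namely read counts divided by 1 factor per library: 99.99% of values were whole reads within a tolerance of 0.01. Per the submitters' processing notes, tools included Bowtie2 and HTSeq, and GRCh38, a human build, stands on these mouse samples too. For the mouse build and annotation, the sources used here name none. The design assumed RPKM, and its log-scale test was kept.

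Of 19077 rows, 20 whose names had turned into dates were left out, and 16833 that reached 1 in 3 or more libraries were tested with limma 3.58.1 (R 4.3.3) on log2(value + 1), with the mouse as a block, an intensity trend and two-sided Benjamini-Hochberg adjustment at 0.05. The pseudocount of 1 understates differences of low rows. The 3' ratio was log2((3' value + 1) / (other mature value + 1)), tested the same way for tRNAs with a mean mature value of at least 50. Treated and input libraries of a number were taken to come from 1 mouse, as their labels share it. Their deviations from the group means correlated at 0.23, 0.29 and 0.58 across rows. Between mice 1 and 2 the correlations were not much lower, at 0.16 and 0.17. Between mouse 3 and the others they were -0.37 to -0.33. Deviations from a group mean cancel out within the group, which by itself pushes correlations between different mice down. The named rows were the 6 largest and 6 smallest anticodon rises, the largest called changes of each kind without overlap at a mean of at least 50, and in each list the highest and the smallest p. Alternatives were edgeR 4.0.16 and DESeq2 1.42.0 on the recovered reads, other pseudocounts, filters and scalings, and leaving out each mouse. The 95% Wilson interval of an anticodon's 3' share in 1 library was at most ± 2.30 points for a mean mature value of at least 1000, and it covers counting error only, as PCR copies of a molecule could not be told apart. Sequences of mouse tRNAs were not used here. A result that the rule for named rows would give is not reported here.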

Additional observations from a re-analysis of the deposited data

How the results depend on the processing

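With 3 mice, sequencing depth limited the low rows, and reads shared between near-identical tRNAs could not be assigned. The counts of anticodons and isodecoders whose 3' ratio was higher stayed within 1.5 times under every alternative run, at 30 to 40 and 87 to 128. All 6 anticodons with the largest rises passed under all 11 settings of that test. Without a replicate block, which treats the pairs as unrelated, limma called 30 rows higher and 0 lower, with 508 at an unadjusted p below 0.05, 31 anticodons higher and 95 isodecoders higher and 0 lower. The exact permutation p for the row kinds was then 0.1.

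The counts over all rows moved more. The rows higher and lower were 160 and 28 with a pseudocount of 0.1, 128 and 634 with libraries scaled to the same total, and 110 and 2002 with the same mature tRNA total. With a mean of at least 50 in fewer rows tested, 114 were lower, and with DESeq2 122. With edgeR 247 were higher and 56 lower, and 299 of its calls were among the 315. Without each mouse in turn, 161 to 245 rows were higher and 27 to 65 lower, 0 to 1 isodecoders were lower, and 0 to 1 anticodons were lower, the 1 being Phe-GAA at -0.48 without mouse 3. Against whole reads only, 0 isodecoders were lower. The 3' rows rose by 0.116 percentage points of all rows, by 21.7 of mature tRNA rows and, in an alternative chosen after seeing the data, by 0.693 without ribosomal RNA rows. The cause of these moves was not tested beyond the scaling shifts.

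Scaled to mature tRNA, the medians of several lists turned, of ribosomal RNA from 0.47 to -0.19, spliceosomal RNA from 0.36 to -0.29, other polymerase III RNA from 0.51 to -0.15, H/ACA box members from 0.11 to -0.55 and partial precursors from 0.32 to -0.25. Of single rows followed, Rn7sk was at -0.024, Rnu2-10 at -0.48, Rnu3b1 at -0.21, Snora17 at -0.078, Snora70 at -0.067, Snord118 at -0.042 and n-R5s100 at -0.19, and scaled to the total Rnu2-10 was at -0.24. The other single results that turned were of tRNAs that did not pass. Without each mouse in turn, Arg-ACG ranged from -0.10 to 0.13, Arg-TCG from -0.078 to 0.090, SeC-TCA from -0.14 to 0.084, Gly-GCC-2 from -0.048 to 0.096 and Val-AAC-5 from -0.22 to 0.33. Against whole reads only, Arg-TCG was at 0.55, Phe-GAA at 0.10, SeC-TCA at 0.19 and Val-AAC-5 at 3.32 (limma adjusted p = 0.00776), and against 5' reads only Arg-TCG was at 0.83. With a pseudocount of 10, Val-AAC-5 was at 0.018.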
